A study of Drosophila melanogaster with 4 samples.

Results

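The intervals described here are the 5' untranslated regions (5' UTRs, the leader sequences ahead of the start codon) of autosomal genes in an iCLIP experiment on Sister of Sex-lethal (Ssx) in Drosophila melanogaster. They were chosen by position alone, as every 5' UTR interval listed on chromosome arms 2L, 2R, 3L, 3R or 4. This gave 1598 of the 2159 listed 5' UTR intervals, from 1042 of 1345 genes. Rows that overlapped on one strand and had the same mean held the same reads and were counted once, which left 1303 autosomal observations at 1173 separate loci. The other 561 intervals, from 303 genes, were X-linked. All 4 transcript regions together list 17175 intervals of 4841 genes.

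iCLIP recovers RNA that was crosslinked to a protein by ultraviolet light and then immunoprecipitated with it. The cells were SL2 cells (Schneider's line 2), a cultured line labelled male, and all libraries came from this line with no further treatment named. The Ssx IP group comprised 2 libraries made with a polyclonal rabbit antibody against Ssx, and the control IgG IP group comprised 2 libraries made with rabbit IgG. Separate cultures are not named in the labels. The p-values therefore cover the spread among these libraries alone, and it may be technical. Of 9 haemocyte genes used to check the line, 7 were listed in at least 1 of the 4 tables, with Hml and NimC1 absent, and of 7 male dosage compensation genes 6 were listed, with roX1 absent. None of 5 germline markers was listed. Markers of other cell types were also present, with 3 of 4 neuron, 3 of 4 muscle and 1 of 2 ovarian soma genes listed, and the muscle gene sls had the highest mean of all these markers, 287 normalized reads. Their part in the results was not tested.

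Ssx is a paralog of Sex-lethal (Sxl), the RNA-binding protein that directs female development in flies and binds runs of uridine. In female cells Sxl blocks translation of msl-2, an autosomal gene, through sites in its 5' UTR and 3' UTR, and it also acts on splicing. Ribosomes enter an mRNA through the 5' UTR and scan it for the start codon, so proteins bound there can affect translation. The comparison asked which leaders gave more reads with Ssx than with control IgG. No RNA abundance was measured beside it here, so more crosslinking and more RNA of a gene cannot be told apart. The base sequence of the intervals was not analysed here.

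Each interval was deposited with 1 mean of normalized reads, 1 log2 fold change between the groups and its standard error, and no value of a single library. Positive values were taken to mean more reads with the Ssx antibody, which is the likely direction, though no column states it. The means could be resolved into whole reads of 4 libraries, which carry no names and were assigned to no group, and they are numbered 1 to 4 by falling size factor. Over separate loci, the autosomal leaders held 2528, 2599, 531 and 243 reads in libraries 1 to 4, or 5901 reads in all, of which 86.9% lay in libraries 1 and 2. All 290 autosomal observations with reads in library 1 alone and all 235 with reads in library 2 alone had a positive fold change, and all 49 with reads in library 3 alone and all 33 with reads in library 4 alone had a negative one. After the authors' scaling, the autosomal totals were still unequal, at 1568, 2463, 699 and 384 scaled reads, and what this adds to the folds was not tested.

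Coverage of single leaders was thin. An autosomal observation held between 2 and 184 reads, with a median of 3, and 109 of 1303 held 10 reads or more. In 607 observations all reads came from 1 library, and 28 had reads in all 4. Only 48 observations, from 48 genes, were listed with an adjusted p, those with a mean of at least 3.55 normalized reads. The other 1255 observations had means of up to 3.53 and none of them had an unadjusted p under 0.05 by the authors' deposited table.

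Among these 48 tested autosomal genes, 4 passed as enriched with Ssx at an adjusted p under 0.05 and 0 as depleted by the authors' deposited table. The enriched share was 8.33%, beside 11.0% of the 82 genes tested in the whole 5' UTR table, and the depleted share of the whole table was 0.00%. The enriched genes were CG7231, B4, tara and cwo. tara (taranis) encodes a transcriptional co-regulator, and cwo (clockwork orange) a transcriptional repressor of the circadian clock. At an unadjusted p under 0.05 by DESeq2 there were 19 genes with a positive and 1 with a negative fold change, and the positive ones were 1.82% of the listed autosomal genes beside 2.30% of all listed 5' UTR genes. The negative one was 0.0960% of the autosomal and 0.0743% of all listed genes.

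CG7231 had the most reads of all autosomal leaders. Its interval of 293 bases (2L, 7983946 to 7984238, plus strand, dm6) held 101, 79, 3 and 1 reads in libraries 1 to 4. The reads were therefore present in all libraries but sparse in libraries 3 and 4. By the authors' deposited table, its mean was 35.8 normalized reads and its log2 fold change 4.16 with a standard error of 1.16 (adjusted DESeq2 p = 0.0206). The interval begins at the annotated start of CG7231 and lies inside the annotated span of Snoo, whose own listed leader is on the minus strand. No source used here says whether reads were counted by strand.

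The other enriched leaders had no read in libraries 3 and 4. B4 (2L, 13513294 to 13513473, minus strand) held 16, 50, 0 and 0 reads over 180 bases, and its log2 fold change was the largest of all autosomal leaders, 5.33 ± 1.63 (adjusted DESeq2 p = 0.0318), by the authors' deposited table. The interval of tara (3R, 16242816 to 16243317, plus strand) held 22, 30, 0 and 0 reads over 502 bases and had 4.94 ± 1.65 (adjusted DESeq2 p = 0.0446) by the authors' deposited table. Reads of both genes thus came from libraries 1 and 2 alone, unevenly so for B4. These intervals lie 35855 bases (B4) and 17165 bases (tara) downstream of the annotated gene start. Transcript starts were not analysed here. cwo (3R, 10388258 to 10389378, plus strand) held 19, 26, 0 and 0 reads over 1121 bases from the annotated start, with 4.73 ± 1.67 (adjusted DESeq2 p = 0.049) by the authors' deposited table. A second cwo leader, of 584 bases at 3R, 10396237 to 10396820, held 3 reads, all in library 1. Per length, CG7231 had 628 reads per kb, B4 367, tara 104 and cwo 40.1, against a median of 15.7 over all autosomal observations. Leaders that were not called reached such values too, with 600 in a 30-base interval of RpL5 and 538 in a 143-base interval of RpL28. None of the 4 calls was kept when the p-values were adjusted over all listed 5' UTR intervals (adjusted p = 0.243 for CG7231 to 0.756 for cwo). This follows from the larger number of intervals adjusted over, 2159 against 183, most of them with low means.

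**Figure D1:**
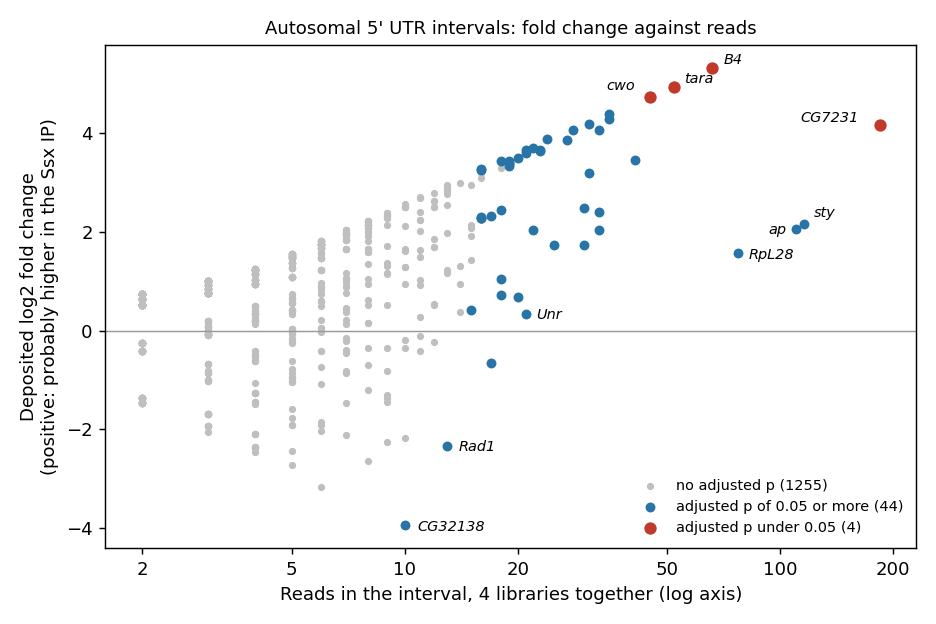
Deposited log2 fold change of each of the 1303 autosomal 5' UTR observations against its reads in the 4 libraries together (log axis). Grey points have no adjusted p, blue points an adjusted p of 0.05 or more and red points, CG7231, B4, tara and cwo, one under 0.05. Most points lie above 0, and intervals with 2 reads range from -1.46 to 0.74, while CG32138 and Rad1 lie lowest among those with an adjusted p.

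Below the enriched genes came leaders with all their reads in libraries 1 and 2 and fewer of them. CG7694 and fray, a Ste20-family kinase gene, share 1 interval (3R, 18584475 to 18584586, plus strand) that held 12, 23, 0 and 0 reads and had a log2 fold change of 4.39 ± 1.71 (adjusted DESeq2 p = 0.0964) by the authors' deposited table. Which of them the reads came from is uncertain. CG5482, now named zda, held 19, 16, 0 and 0 reads (4.30 ± 1.71, adjusted DESeq2 p = 0.0964 by the authors' deposited table). Pdi, which encodes a protein disulfide isomerase of the endoplasmic reticulum, held 13, 18, 0 and 0 reads (4.18 ± 1.73, adjusted DESeq2 p = 0.108 by the authors' deposited table). CG5973 had 25, 8, 0 and 0 reads and the kinase gene CaMKI, on chromosome 4, had 9, 19, 0 and 0, both with a adjusted DESeq2 p of 0.115 by the authors' deposited table. None of these passed the threshold, and their reads were split between libraries 1 and 2 in different proportions.

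Further leaders with an unadjusted p under 0.05 were crc, which encodes the ATF4 homolog of the stress response, with 18, 22, 0 and 1 reads, and kay, the fly Fos gene, with 8, 13, 0 and 0. Their log2 fold changes were 3.46 ± 1.56 and 3.60 ± 1.80 by the authors' deposited table (adjusted DESeq2 p = 0.117 and 0.127). Named after their values were seen, egr (a tumour necrosis factor ligand), Nipped-B (the cohesin loader), CG31955, CG31694, CG4896 and CG9253 had log2 fold changes of 3.20 to 3.88 by the authors' deposited table. Of the 18 positive observations with an unadjusted p under 0.05, 15 had all their reads in libraries 1 and 2, and each held at least 21 reads.

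Some leaders with a high mean did not pass. The interval of sty (3L, 3416804 to 3417961, minus strand), which encodes Sprouty, an antagonist of receptor tyrosine kinases, held 38, 66, 11 and 1 reads at a mean of 25.5. Its log2 fold change by the authors' deposited table was 2.15 ± 1.21 (adjusted DESeq2 p = 0.132). The main leader of ap (2R, 5725860 to 5726832, minus strand), the LIM-homeodomain gene apterous, held 51, 48, 5 and 6 reads, with 2.07 ± 1.12 (adjusted DESeq2 p = 0.129) by the authors' deposited table. Both were more than 1 standard error above 0 and did not pass. The other 4 leaders of ap held between 2 and 4 reads each. RpL28, a ribosomal protein gene, held 51, 16, 10 and 0 reads in an interval of 143 bases (3L, 3222153 to 3222295, minus strand), with 1.56 ± 1.36 (adjusted DESeq2 p = 0.325) by the authors' deposited table.

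**Figure D2:**
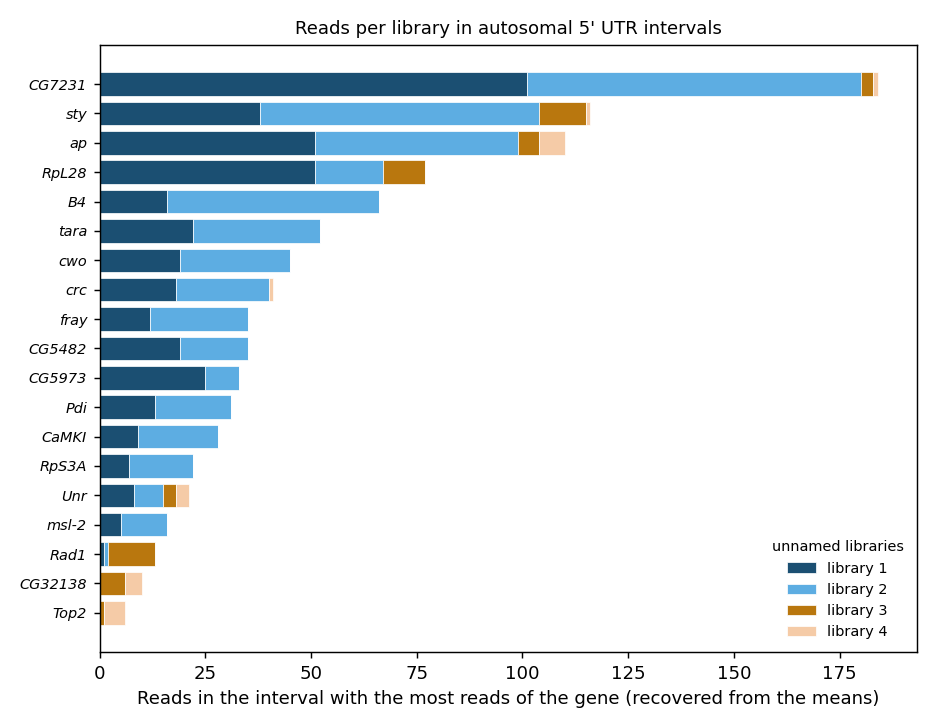
Reads recovered from the means for 19 autosomal leaders, drawn as bars divided by library, 1 bar for the interval with the most reads of each gene. The bars of B4, tara and cwo hold reads of libraries 1 and 2 only, those of sty, ap and RpL28 also hold reads of library 3, and those of Rad1, CG32138 and Top2 consist mostly of reads of libraries 3 and 4.

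Of the 48 tested observations, 3 had a negative fold change. The leader of CG32138, now named Frl, a formin gene (3L, 14053215 to 14054067, plus strand), held 0, 0, 6 and 4 reads and had the lowest value of all 5' UTR intervals by the authors' deposited table, -3.94 ± 1.84 (adjusted DESeq2 p = 0.117). The leader of Rad1, a DNA damage checkpoint gene, held 1, 1, 11 and 0 reads (-2.33 ± 1.76, adjusted DESeq2 p = 0.26 by the authors' deposited table). For CG32138 the reads came from libraries 3 and 4 and for Rad1 almost all from library 3 alone, and neither passed. After CG32138, the lowest autosomal values by the authors' deposited table were those of Top2, the topoisomerase II gene, with 0, 0, 1 and 5 reads (-3.16 ± 1.93), and CG4822, with 0, 0, 4 and 1 reads (-2.71 ± 1.96). Both are listed without an adjusted p.

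Leaders of one gene could differ in which libraries reached them. In CG4822 the reads of libraries 3 and 4 lay in an interval of 48 bases (2L, 120033 to 120080, minus strand), and the separate interval at 120168 to 120364 held 2, 1, 0 and 0 reads. RpS4 was similar. Its interval of 82 bases (3L, 13041756 to 13041837, plus strand) held 4, 5, 0 and 0 reads, and its interval of 30 bases (13041982 to 13042011) held 0, 0, 2 and 2. Another interval (13041801 to 13042011), which overlaps both, held 6, 5, 2 and 2 reads, with a log2 fold change of 0.42 ± 1.65 by the authors' deposited table. These gene examples were chosen after their values were seen, and with so few reads they describe these libraries only. Over the 116 genes with reads at more than 1 separate autosomal locus, 74 had only positive folds, 2 only negative ones and 40 had both.

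Ribosomal protein genes, whose mRNAs are abundant and start with short leaders, made up 51 of the listed genes. Of these, 7 were tested and 0 were enriched or depleted, beside 8.33% enriched and 0.00% depleted of all tested autosomal genes. Only 1 of the 51, RpS3A, had an unadjusted p under 0.05 by DESeq2, with a positive fold, beside 1.82% of all listed autosomal genes. By the interval with the smallest p of each gene, 44 had a positive and 7 a negative fold change (86.3% positive, beside 79.8% of all autosomal genes). The median log2 fold change was 1.07 by the authors' deposited table, beside 0.74 over all autosomal genes. Those intervals held a median of 5 reads, beside 3. Over all autosomal observations the median fold was 0.51 at 2 reads and 1.37 at 5 to 9. What read depth adds to the ribosomal median was not tested. The ribosomal leaders held 196, 234, 35 and 10 reads in libraries 1 to 4. The median interval was 41 bases long, beside 198 over all autosomal genes. RpS3A (4, 67087 to 67207, minus strand) held 7, 15, 0 and 0 reads (3.70 ± 1.79, adjusted DESeq2 p = 0.123 by the authors' deposited table). RpL40 held 9, 11, 0 and 0 reads, RpL5 10, 9, 0 and 0, and RpL30 3, 13, 0 and 0, at log2 fold changes of 3.49, 3.37 and 3.26 by the authors' deposited table. The tested leaders of RpL28, RpS26 and RpS4 had reads in library 3 as well, and their folds lay at 1.56, 0.68 and 0.42 by the authors' deposited table. The tested RpL28 interval overlaps the annotated snoRNA:Or-CD11b, and its untested one with 9 reads snoRNA:Or-CD11a, so which RNA the reads came from is uncertain.

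The sex determination and dosage compensation list had 5 members with an autosomal leader, 1 of them tested and 0 enriched, beside 8.33% of tested autosomal genes. All 5 had a positive fold in the interval with the smallest p, beside 79.8% of all autosomal genes. Other leaders of the list were negative, the lowest at -1.36 for Hrb27C, -0.25 for fru and -0.03 for Unr by the authors' deposited table. msl-2 (2L, 3465640 to 3466112, minus strand) held 5, 11, 0 and 0 reads over 473 bases from its annotated start. Its log2 fold change was 3.21 ± 1.85 at an unadjusted DESeq2 p of 0.083 by the authors' deposited table, with no adjusted p. Unr, which encodes the co-repressor of msl-2 translation, was the tested member and held 8, 7, 3 and 3 reads over 3478 bases, so reads came from every library. It had 0.34 ± 1.52 (adjusted DESeq2 p = 0.822) by the authors' deposited table. The hnRNP gene Hrb27C had 4, 4, 0 and 0 reads (2.07 ± 1.96), and fru and how, with 2 reads each, both in library 2, had the same value, 0.74 ± 1.93, by the authors' deposited table. Every autosomal interval with this pattern of reads has that same value.

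Transcription and chromatin regulators had 21 members listed, 4 tested and 2 enriched, beside 8.33% enriched among tested autosomal genes and 11.0% among all. The tested ones were tara, cwo, crc and kay. This list was chosen with earlier results of these data known, and other regulators lie outside it. Among them are the LIM-homeodomain gene ap, the cohesin loader gene Nipped-B and EcR, which were tested and not enriched. Over-representation of regulators among the enriched genes was not tested. By the interval with the smallest p of each gene, as for every list here, 16 of the 21 had a positive fold (76.2%, beside 79.8% of all autosomal genes), with a median of 0.89 by the authors' deposited table, and their leaders held 127, 142, 17 and 16 reads. cwo was also the only one of 2 listed clock genes that was tested. The signalling list had 14 members, of which kay was tested and 0 were enriched, with a median of 1.12. Chaperones had 7 members listed, with Pdi tested and 0 enriched, and a median of 1.23. Median reads per interval were 5 for the transcription and chromatin regulators, 4.5 for signalling and 4 for chaperones, beside 3 over all autosomal genes. What read depth adds to these medians was not tested. The ecdysone list had 5 members, and its tested one, EcR, the ecdysone receptor, held 3, 17, 1 and 1 reads (2.04 ± 1.63, adjusted DESeq2 p = 0.276 by the authors' deposited table). Among 14 translation factors and among 10 RNA turnover genes and translational repressors, pAbp, the poly(A)-binding protein gene, was the tested member in both lists, with 9, 6, 1 and 2 reads and a log2 fold change of 1.05 ± 1.63 (adjusted DESeq2 p = 0.596) by the authors' deposited table. None of the 11 splicing factor and hnRNP genes, the 11 cytoskeleton and adhesion genes and the 2 metabolic enzyme genes was tested, and their medians were 0.64, 0.74 and 0.75 by the authors' deposited table.

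Histone genes also made up 51 of the listed genes, but with few reads. Of these, 50 are copies in the histone repeat (2L, 21416953 to 21536504), whose near-identical sequences make the copy of origin uncertain. Histone observations held between 2 and 6 reads and 0 were tested. Without the histone genes, 1250 observations remained, of which 79.2% were positive, and the median log2 fold change was again 0.74 by the authors' deposited table.

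Leaders were also grouped by position and by length. Of 1288 observations placed in their annotated gene, 691 began within 5 bases of its start, and 79.5% of these had a positive fold. Among the 344 that lay over 1000 bases downstream, 79.1% were positive, and among the 108 over 10000 bases downstream, 76.9%. Median reads were 3 in each of these classes. Leaders of up to 100 bases had a median of 3 reads and 83.1% positive folds (296 observations), and those over 1000 bases had a median of 5 reads and 70.1% (67 observations). Across the 1303 observations, length and reads had a Spearman correlation of 0.137, over points that share the same 4 libraries. Of all autosomal observations, 466 overlapped a listed intron interval on their strand and can hold the same reads, and 83.5% of these were positive, beside 76.8% of the 837 that overlapped none.

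Set beside the X-linked leaders, the autosomal ones held less of their signal in libraries 1 and 2. Autosomal leaders supplied 65.3% of the 5' UTR reads of library 1 (exact Clopper-Pearson 95% interval 63.7 to 66.8) and 65.5% of those of library 2 (64.0 to 67.0). They supplied 76.3% of library 3 (73.0 to 79.4) and 69.0% of library 4 (63.9 to 73.8). The values of libraries 1 and 2 lay close together, that of library 3 lay above them with no overlap of intervals, and that of library 4 overlapped the others. These intervals cover counting error only. They take each read as independent, though how reads were deduplicated is not given. No test over groups was made, since the libraries carry no names. Arm 3L held 13.4%, 12.8%, 22.0% and 15.1% of all 5' UTR reads of libraries 1 to 4.

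The shares of positive folds differed in the same sense. Of the 1303 autosomal observations, 1032 (79.2%, exact Clopper-Pearson 95% interval 76.9 to 81.4) had a positive fold, and of 439 X-linked ones 397 (90.4%, 87.3 to 93.0), with medians of 0.74 and 0.85 by the authors' deposited table. At 2 reads the positive shares were 74.2% on the autosomes and 83.3% on the X, at 3 to 4 reads 79.3% and 90.9%, and at 5 to 9 reads 83.2% and 94.9%. At 10 to 19 reads they were 88.6% and 96.9%. At 20 reads or more the order was the other way, with all 30 autosomal observations positive and 27 of 30 X-linked ones. The median folds were equal on autosomes and X at 2 reads (0.51) and at 3 to 4 reads (0.85) by the authors' deposited table. Autosomal and X-linked medians were 1.37 and 1.47 at 5 to 9 reads and 2.24 and 2.65 at 10 to 19. With 20 reads or more they were 3.62 and 3.13. Read classes and folds come from the same reads. Libraries 1 and 2 supplied 81.3% of the autosomal reads at 2 reads and 94.9% at 20 or more. The autosomal rise with reads is therefore not a separate result. Of tested genes, 4 of 48 autosomal (8.33%) and 5 of 34 X-linked ones (14.7%) were enriched by the authors' deposited table. These are counts over intervals of the same 4 libraries and were given no test. The binomial intervals take observations as independent, which they are not. The 1303 autosomal ones lie at 1173 loci and the 439 X-linked ones at 382. They are no test of autosomes against the X. By arm, enriched genes were 2 of 19 tested on 2L and 2 of 7 on 3R, and 0 of 12 on 2R, 0 of 7 on 3L and 0 of 3 on chromosome 4, where 3, 2 and 2 genes passed an unadjusted DESeq2 p of 0.05. Those on 3L were Pdi with a positive and CG32138 with a negative fold. The 7 genes tested on 3R had 6 tested observations, since CG7694 and fray share 1 interval.

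**Figure D3:**
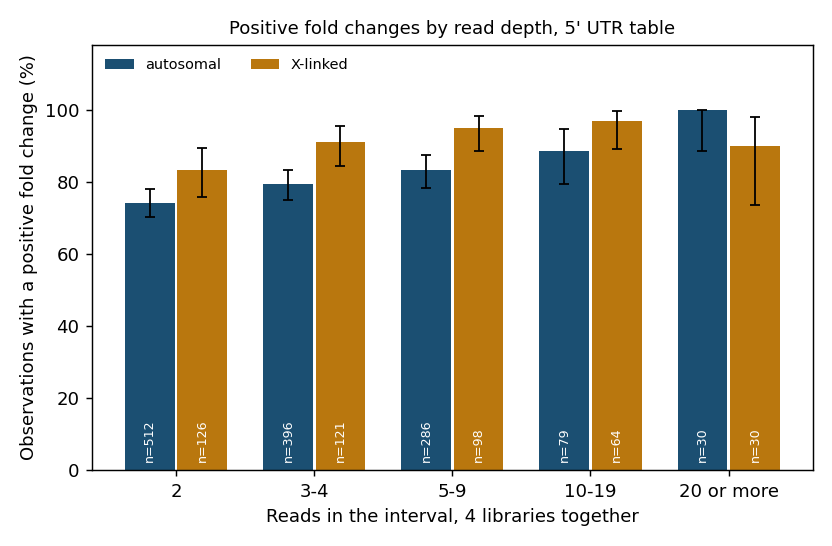
Share of 5' UTR observations with a positive log2 fold change (%), by reads in the interval, for autosomal (blue) and X-linked (orange) leaders, with exact 95% binomial intervals as bars and the number of observations in each column. The autosomal share goes from 74.2% at 2 reads to 100% at 20 reads or more and is the lower one in every class but the last. Read classes and folds come from the same reads, so the rise is not a separate result. The binomial intervals take observations as independent, which overlapping ones are not.

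The other tables give values for the same genes in other parts of the transcript. They come from the same 4 libraries, each table scaled on its own, so folds are set side by side here and not compared in size. The coding sequence table lists 420 of the 1042 genes, with 0 enriched and 0 depleted by DESeq2 (0.00% of all genes tested there) and 0 with an unadjusted p under 0.05. The intron table lists 625 of them and tested 169, of which 7 were enriched (4.14%, beside 4.73% of all genes and 4.43% of autosomal genes tested there) and 4 were depleted (2.37%, beside 6.90% and 6.51%). In 3' UTRs 601 are listed and 54 tested, with 4 enriched (7.41%, beside 36.5% of all genes and 14.1% of autosomal genes tested there) and 0 depleted (beside 1.12% and 1.09%).

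The enriched introns were those of ap, CtBP, CrebA, Gprk1, cta, RpL28 and CG17018, and the depleted ones those of CG9932, CG32264, CG17816 and lilli. The intron of ap had 2.40 ± 0.74 and a adjusted DESeq2 p of 0.0186 by the authors' deposited table, and its 3' UTR 0.59 ± 0.68. The intron of the corepressor gene CtBP had 3.06 ± 1.02, while its leader held 5, 5, 3 and 1 reads at 0.37 ± 1.68 by the authors' deposited table. CG9932 had the most negative intron among these genes, -4.36 ± 0.75 at a mean of 193 normalized reads by the authors' deposited table, and its leader held 2, 1, 1 and 0 reads. The enriched 3' UTRs were those of Galphaq (4.96 ± 1.46), Uev1A (3.27 ± 1.05), larp (3.10 ± 1.15) and brat (3.43 ± 1.40) by the authors' deposited table, and their leaders held 6, 10, 2 and 3 reads. None of the 4 genes enriched in the 5' UTR was called in another table, but few of their other intervals could be. CG7231 is listed in no other table. By the interval with the smallest p, the intron of B4 and the 3' UTRs of B4, tara and cwo have no adjusted p.

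For the 48 genes tested in the 5' UTR, the fold was positive in 45 in that table, with a median of 3.23 over the interval with the smallest p of each gene. These genes were tested because of their mean, and most reads behind the means lay in libraries 1 and 2. The 5' UTR count therefore follows in part from the selection. In introns the fold was positive in 36 of 42 listed genes, with a median of 1.77 by the authors' deposited table, beside 56.7% positive and a median of 0.13 over all autosomal genes there. In 3' UTRs it was positive in 15 of 38 (39.5%), with a median of -0.28, beside 1058 of 2035 and 0.13 over all autosomal genes. In coding sequence it was positive in 21 of 28 (75%), with a median of 0.68, beside 64.8% and 0.66. Over the genes with any autosomal leader, 68.5% were positive in introns, 48.9% in 3' UTRs and 75% in coding sequence. Their medians were 0.57, -0.05 and 0.68 by the authors' deposited table, so the coding sequence values of the tested genes were those of all genes with a leader. These counts have no test. Of the 48 tested leaders, 24 overlap a listed intron interval that can hold the same reads, and 23 have all their reads in libraries 1 and 2, so the intron values are not independent of the leader values. The 3' UTR values by the authors' deposited table were -0.45 ± 1.56 for B4, -1.42 ± 1.68 for tara and -0.09 ± 1.57 for cwo, all within 1 standard error of 0. These rest on means of 3.33, 0.658 and 3.24 normalized reads and have no adjusted p, so a 3' UTR signal of these genes was not tested. CG7231 is listed in the 5' UTR table only. The intron interval of tara (2.93 ± 1.32, adjusted DESeq2 p = 0.138 by the authors' deposited table) overlaps its leader and can hold the same reads, whereas the intron intervals of B4 (2.14 ± 1.59) and cwo (-0.13 ± 1.20) do not. msl-2 had 3.95 ± 1.56 in its 3' UTR by the authors' deposited table at an unadjusted DESeq2 p of 0.0111 and no adjusted p.

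**Figure D4:**
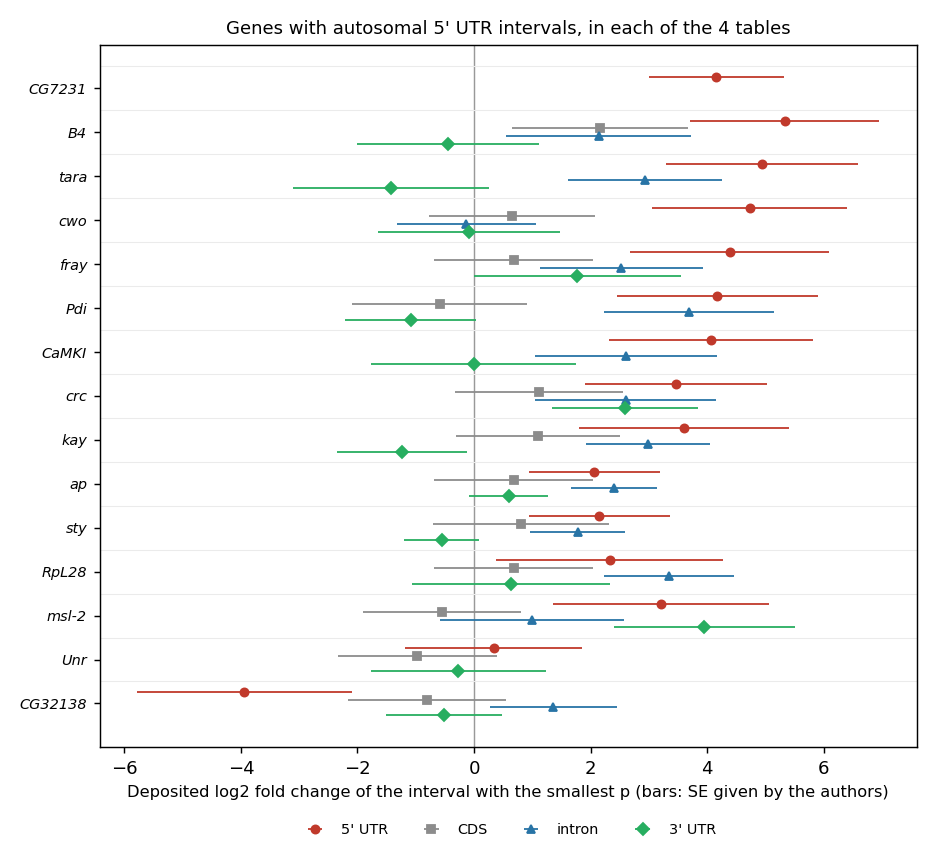
Deposited log2 fold change of 15 genes with autosomal leaders in the 5' UTR (red), CDS (grey), intron (blue) and 3' UTR (green) tables, 1 point for the interval with the smallest p and bars for the standard error given by the authors. Each table was scaled on its own. The red points of B4, tara and cwo lie between 4.73 and 5.33 and their green points between -1.42 and -0.09, while the red and green points of msl-2 lie above 3. The green points of B4, tara and cwo and both of these points of msl-2 have no adjusted p.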

How the data were processed

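iCLIP libraries of SL2 cells were compared between an Ssx IP and a control IgG IP, 2 libraries each. Per the submitters' processing notes, cutadapt 1.6, Bowtie 0.12.7, DESeq2 1.14.1 and DESeq were used with BDGP6 and dm6. How reads were counted, deduplicated and assigned to strands is not given in the sources used here. Per the file headers, the authors deposited for each interval a signal (the mean of normalized reads over the libraries), a log2 fold change with its standard error on the log2 scale, a test statistic (a score equal to fold over error in every row) and a p-value with an adjusted p-value. The deposited 5' UTR adjustment covered 183 intervals, of which 122 are listed with an adjusted p. The others were not analysed here.

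The members and gene lists were chosen with earlier results of these data known. A gene was called when any interval had a deposited adjusted p under 0.05, and no test was run on the tables, so no library was left out and no count model was fitted. The mean averages, over the 4 libraries, whole reads divided by the library's size factor. Solving this gave 1 set of reads for 100% of the 2159 intervals within a relative tolerance of 1e-13, and the solver recovered simulated reads. The named genes follow a rule on calls, means, folds and lists, and exceptions are marked. Of 1042 gene names, 1030 matched RefSeq genes of Release 6, which gave current names, gene spans and overlapping genes. Shares have exact Clopper-Pearson 95% intervals. Python 3.11.15, pandas 2.3.3 and SciPy 1.17.1 were used.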

Additional observations from a re-analysis of the deposited data

How the results depend on the processing

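The 4 enriched genes were again 4 with an adjustment over the 122 listed 5' UTR rows with an adjusted p, 7 at an adjusted p under 0.1, and 0 when adjusted over all listed 5' UTR rows, over merged observations or over the 4 tables together. The fewer calls follow from the larger number of intervals adjusted over. With the opposite direction of the fold change, 0 genes would be enriched and 4 depleted; all other settings gave 0 depleted. The median log2 fold change of 0.74 was 1.50, 2.15 and 3.33 at means of at least 1, 2 and 5 normalized reads and 3.26 over observations with an adjusted p. The positive share of 79.2% was 93.8% with an adjusted p, 77.0%, 81.2% and 100% at means of at least 1, 2 and 5 and, in an alternative chosen after seeing the data, 76.8% without intervals that overlap a listed intron. Means and folds come from the same reads, so changes with the cut on the mean are not separate results. Counting every row, leaving out chromosome 4 or leaving out histone genes kept the median and the share within their 95% interval. For the median that interval runs from 0.74 to 0.74, because 126 observations with 2 reads in library 2 alone share this value. The unchanged median therefore says little. The 11 genes enriched in another region were 29 at an adjusted p under 0.1 and 0 with an adjustment over the 4 tables together. No paired analysis was possible because the tables hold no values of named libraries, and for the same reason no library was left out in turn. The planned search for runs of T was not run, since no genome sequence was at hand. A median of 3 reads per interval limits every value of a single leader.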
